A study of Mus musculus with 2 samples.

Results

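Cathepsins and legumain are the proteases of the lysosome, the acidic compartment in which macrophages degrade what they take up. The genes described here were 10 members chosen by symbol, namely Ctsa, Ctsb, Ctsc, Ctsd, Ctsh, Ctsk, Ctsl, Ctss, Ctsz and Lgmn, out of 22886 genes in the data. Each was found in a single row, and all 10 passed the filter on low values (1 RPKM or more on average of both libraries), as did 10982 genes in all. RPKM counts reads per unit of transcript length and of sequencing depth, so levels of different genes can be compared. The 2 libraries were polyA RNA of cells that the labels describe as aerobic cells, sorted by flow cytometry from subcutaneous Lewis lung carcinoma (LLC) tumors of wild type C57BL/6 mice. LLC is a mouse lung carcinoma line. In the vehicle group the mice received the carrier alone, and in the clodronate group they received clodronate, a compound that is usually packed in liposomes to kill phagocytes. The labels give no dose, time, age, sorting marker or number of pooled animals. There was 1 library per condition, so no difference below has a replicate check, no p-value is given, and what clodronate did cannot be told apart from how these mice, sorts or preparations differed.

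The enzymes are made as inactive precursors, carried to the lysosome by mannose 6-phosphate receptors, and activated there by acid and by each other. Most members are cysteine proteases of the papain family. Ctsd is an aspartic protease, Ctsa is a serine carboxypeptidase, and legumain, the product of Lgmn, is a cysteine protease of another family that cuts after asparagine. Beyond bulk degradation, cathepsin S and related enzymes trim the invariant chain, which blocks the groove of MHC class II molecules until antigen peptides are ready, and cathepsins and legumain process the endosomal Toll-like receptors. Tumor macrophages are known for strong cathepsin expression.

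Transcription of lysosomal genes is known to be driven by TFEB and its relatives, the MiT factors, which bind the E-box CACGTG. Promoter windows of 300 bases, 250 before and 50 after the start of transcription, were taken from RefSeq on the build GRCm38.p6 for 8 of the 10 members, all but Ctsb and Ctsh. This E-box, which reads the same on both strands, was present in windows of 4 of these 8 genes, against 8.09% of all 27025 genes with a window. A second motif, GAAA followed by any 2 bases and another GAAA, on either strand, is the core of the site for interferon regulatory factors. It was present in 1 of the 8 genes, Ctss, against 3.99% of all genes. Both motifs were picked after these sequences had been read, and a match is no evidence of binding. The 30 bases around a match follow for the genes that held one, 5′ to 3′ in the direction of the gene and with the motif in capitals, to show each motif in its context. Ctsa and Ctsd each held another E-box in the same window.
Ctsa (chr2:164833749-164833778, plus strand, E-box from 12 bases before the second of its starts): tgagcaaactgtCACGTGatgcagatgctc
Ctsd (chr7:142387908-142387937, minus strand, E-box from 98 bases before the start): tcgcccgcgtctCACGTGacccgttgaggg
Ctsl (chr13:64370739-64370768, minus strand, E-box from 236 bases before the start): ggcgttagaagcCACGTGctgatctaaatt
Lgmn (chr12:102439124-102439153, minus strand, E-box from 49 bases before its downstream start): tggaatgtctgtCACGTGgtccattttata
Ctss (chr3:95526755-95526784, plus strand, GAAA repeat from 21 bases before the start): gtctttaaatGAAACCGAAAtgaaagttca

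The files give no read totals, but low values fell on steps. Among loci of 1000 to 6000 bases with less than 0.3 RPKM, the most frequent product of RPKM and length was 0.0781 RPKM kb in the vehicle library and 0.0956 RPKM kb in the clodronate library, with further peaks at multiples of it. Taken as the worth of 1 read, these steps give about 12802759 and 10457454 reads if the RPKM were not rescaled between libraries. The reads behind each member were estimated from its RPKM, transcript length and this step. The intervals below are 95% intervals from these estimates, cover counting error only, and say nothing of the spread between mice. All 11 macrophage markers examined, such as Lyz2, C1qa and Csf1r, had at least 10 RPKM in both libraries, with a median log2 ratio of 0.06. Single markers ranged from -0.96 for C1qc to 0.73 for Mrc1. Of 8 epithelial markers 5, Epcam among them, were listed at 0 in both. The highest epithelial marker was Cdh1, with 6.14 RPKM with vehicle and 6.44 RPKM with clodronate. Krt8 had 3.67 and 1.33 RPKM, and Krt18 had 2.97 and 3.19 RPKM. No list of LLC genes was examined, so these markers cannot tell how many carcinoma cells the sorts held. Of 7 neutrophil markers 6 were listed at 0 in both. The exception, S100a8, had 12.7 RPKM with vehicle and 23.1 RPKM with clodronate. The 8 T and NK cell markers summed to 11.1 and 9.43 RPKM, most of it Cd4 (10.3 and 7.72 RPKM). Of these 8, 3 were listed at 0 in both, Cd3e and Cd3g among them. The 8 endothelial markers summed to 2.37 and 7.87 RPKM.

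The cathepsin pool as a whole was nearly the same in both libraries. The 10 genes summed to 8922 RPKM with vehicle and 8668 RPKM with clodronate, which is 1.48% and 1.45% of all RPKM, and a ratio of 0.972. Ctss and Ctsh were lower by more than 1.5-fold in the clodronate library, a difference that fell short of 1.5-fold once GC content and transcript length were corrected for, a step added after seeing the data. Ctss and Ctsh together had 2588 RPKM with vehicle and 1570 RPKM with clodronate, and the other 8 genes had 6334 and 7098 RPKM. In bulk samples, fewer cells of a type and less RNA per cell cannot be told apart.

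**Figure D1:**
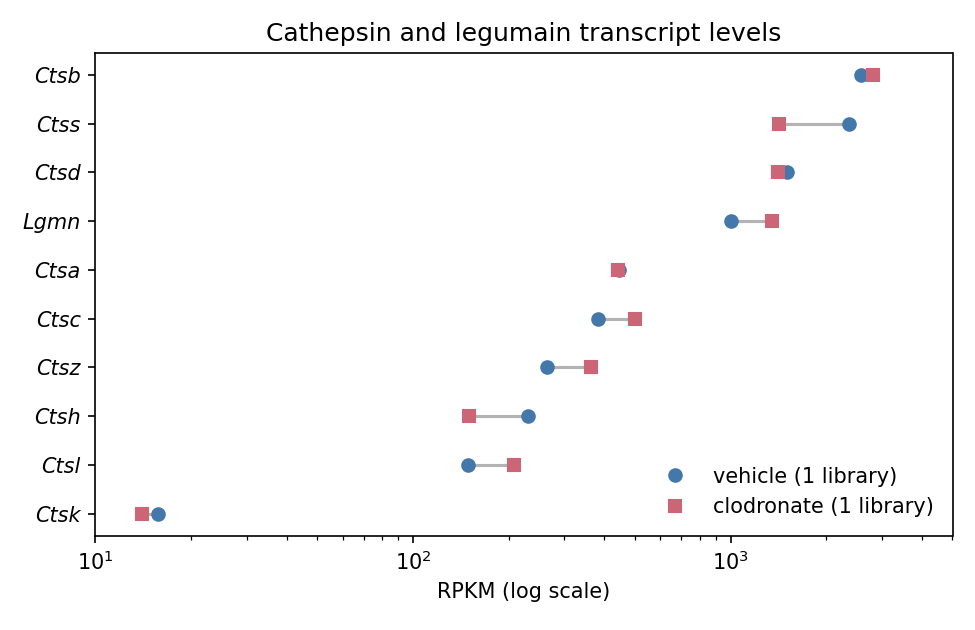
RPKM of each member on a log scale in the vehicle library (circles) and the clodronate library (squares), 1 library each, ordered by the vehicle level. Levels run from 14.0 RPKM for Ctsk to 2811 RPKM for Ctsb, and the longest gaps are those of Ctss and Ctsh, which are lower with clodronate.

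No member differed by 2-fold in either direction. Of all genes kept, 6.95% were higher with clodronate by 2-fold or more and 6.77% were lower by as much. At 1.5-fold, 2 members were lower, Ctss and Ctsh, and 0 were higher, where 16.3% of all genes kept were lower and 16.6% higher. With GC content and length corrected for, 0 members were lower by 1.5-fold and 1, Ctsl, was higher. Since most members are abundant, genes averaging 100 RPKM or more are the closer background. Of these 823 abundant genes, 12.9% were lower by 1.5-fold or more and 8.26% were higher by as much. All 10 members lay between the 5th and the 95th percentile of the abundant genes, at -0.94 and 0.93. The counts of members are near the background. The median log2 ratio of clodronate over vehicle, each with 1 RPKM added, was 0.06 for the members and 0.02 for all genes kept, with 5 members above 0 and 5 below. The counting interval lay above 0 for 5 members and below 0 for 3, and it held 0 for Ctsa and Ctsk.

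Ctss had the largest difference in the values as deposited, and the fourth largest with GC content and length corrected for (-0.53), behind Ctsl, Ctsh and Ctsc (0.66, -0.57 and 0.55). Cathepsin S is a protease of antigen-presenting cells that stays active at neutral pH and makes the last cuts in the invariant chain. Its level was 2357 RPKM with vehicle and 1420 RPKM with clodronate, about 40889 and 20119 reads. The log2 ratio was -0.73 (counting interval -0.76 to -0.71), or 1.66-fold lower with clodronate. Of the abundant genes, 8.51% had a ratio as low or lower. Among all genes kept, Ctss went from rank 32 to rank 62, and its share of the pool from 26.4% to 16.4%. It is encoded on chromosome 3 from 95330707 to 95360325 of the build mm9, the build of the deposited loci, next to Ctsk. Of the members with a promoter window, all but Ctsb and Ctsh, Ctss alone held the GAAA repeat, a motif picked after the sequences were read.

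Ctsh was the other member lower by 1.5-fold. Cathepsin H is mainly an aminopeptidase, which removes residues from the amino end of its substrates. Its level was 231 RPKM with vehicle and 150 RPKM with clodronate, with a log2 ratio of -0.62 (-0.69 to -0.55) and a fold of 1.54. As low a ratio or lower was found in 11.8% of the abundant genes. Ctsh stood above Ctsl in the vehicle library, at 1.54 times its level, and below it in the clodronate library, at 0.721 times. Ratios over the genes kept differed with base composition. The median log2 ratio was -0.24 in the lowest of 10 bins of GC content and 0.29 in the highest. After GC content and transcript length were corrected for, Ctss stood at -0.53 and Ctsh at -0.57, both short of 1.5-fold. The corrected value of Ctsh lay within its counting interval. GC content and length were corrected for together, so the part of each was not told apart.

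The log2 ratios of Lgmn, Ctsl, Ctsz and Ctsc lay between 0.39 and 0.47, all short of 1.5-fold. Legumain processes cathepsins B, H and L and starts the cutting of antigens. Lgmn had 1005 RPKM with vehicle and 1355 RPKM with clodronate, with a log2 ratio of 0.43 (0.41 to 0.46). Of the abundant genes, 13.4% had a ratio as high or higher. It had 0.426 times the level of Ctss in the vehicle library and 0.954 times in the clodronate library. Its share of the pool went from 11.3% to 15.6%.

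Cathepsin L, a strong endopeptidase, processes the invariant chain in the epithelium of the thymus. Ctsl had 149.6 RPKM with vehicle and 208 RPKM with clodronate, a log2 ratio of 0.47 (0.41 to 0.54), which was the highest of the members. As high a ratio or higher was found in 11.1% of the abundant genes. Once GC content and length were corrected for, its log2 ratio was 0.66, past 1.5-fold. Ctss stood at 15.8 times the level of Ctsl in the vehicle and at 6.83 times in the clodronate library.

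Ctsz and Ctsc encode exopeptidases. Cathepsin Z, also called X, removes single residues from the carboxyl end, and its gene had 265 RPKM with vehicle and 363 RPKM with clodronate, with a log2 ratio of 0.45 (0.40 to 0.51). Cathepsin C takes dipeptides off the amino end and so activates some serine proteases of granules. Ctsc had 381 and 499 RPKM, with a log2 ratio of 0.39 (0.35 to 0.42). These ratios lay within the range of abundant genes, of which 12.3% reached that of Ctsz and 15.8% that of Ctsc.

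**Figure D2:**
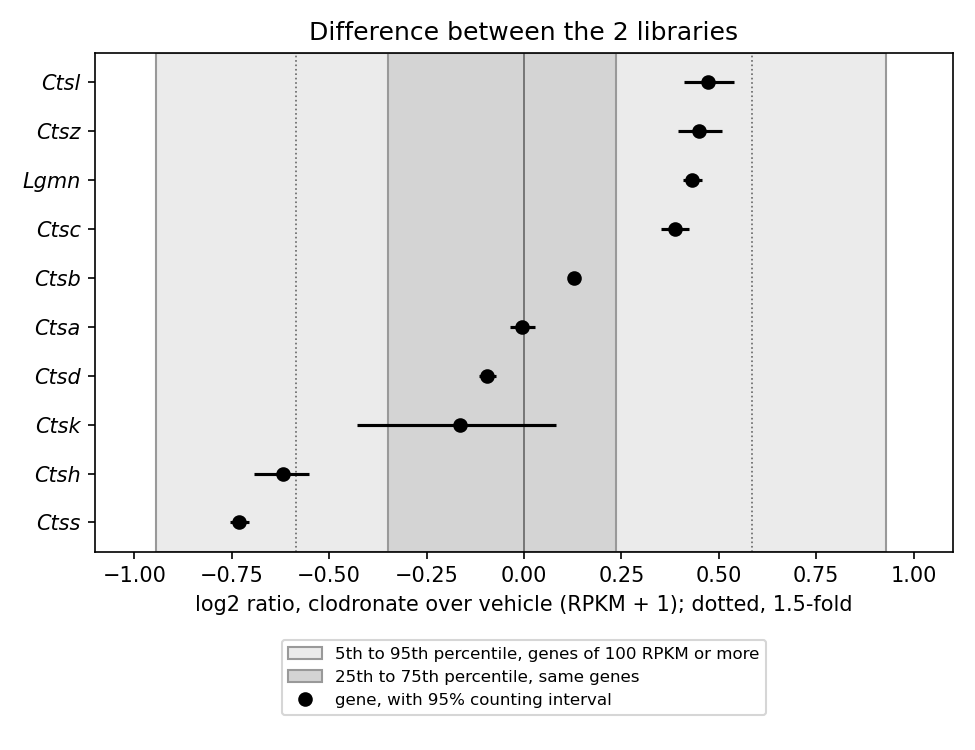
log2 ratio of clodronate over vehicle for each member (points) with the 95% counting interval (lines), over the spread of 823 genes averaging 100 RPKM or more (shaded, 5th to 95th percentile from -0.94 to 0.93 and 25th to 75th from -0.35 to 0.24). Ctss and Ctsh lie left of the dotted line at 1.5-fold, and 4 genes lie between 0.39 and 0.47.

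The remaining members differed little. Ctsb was the most abundant member in both libraries, with 2573 RPKM with vehicle and 2811 RPKM with clodronate and a log2 ratio of 0.13 (0.12 to 0.14). Cathepsin B is both an endopeptidase and a carboxypeptidase. Ctsd, the main aspartic protease of the lysosome, had 1501 and 1406 RPKM, a log2 ratio of -0.09 (-0.12 to -0.07).

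Ctsa had 444 RPKM with vehicle and 443 RPKM with clodronate, with a log2 ratio of -0.0047 (-0.04 to 0.03). Its product, protective protein, holds neuraminidase and beta-galactosidase in a stable complex. The Ctsa locus in the files, chromosome 2 from 164656229 to 164683208, also covers Neurl2 and Pltp, and 10.5% of the exonic bases of Ctsa overlap exons of Pltp on the opposite strand (GENCODE M21). Pltp had 414 and 550 RPKM. The labels do not say whether strand was kept, so reads of the overlap cannot be assigned to a gene. The same holds for 12.8% of the exonic bases of Ctsb, which overlap Fdft1, a gene with 46.4 and 43.3 RPKM. In the same annotation 34.4% of the exonic bases of Ctsd lie in the gene model Gm49369 on the same strand, and 26.8% of those of Ctsl lie in Gm47123 on the opposite strand. These shares are of all annotated exons of a gene, 6489 bases for Ctsl. The transcript of Ctsl used for its length had 1971 bases, and how many shared bases it holds was not examined.

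Ctsk was the only member under 100 RPKM. Cathepsin K, the collagenase of osteoclasts, is also made by fibroblasts and some macrophages. It had 15.8 RPKM with vehicle and 14.0 RPKM with clodronate, about 305 and 221 reads, with a log2 ratio of -0.16 (-0.43 to 0.08). Of 8 osteoclast genes 6 were kept, of which Ocstamp alone passed 2-fold (1.86 and 0.203 RPKM), with a median log2 ratio of -0.24. Acp5, the acid phosphatase of osteoclasts and macrophages, had 58.6 and 59.0 RPKM, and Calcr and Oscar were listed at 0 in both libraries. All 10 fibroblast markers were found at some level, 8 were kept, and their summed level was 160 RPKM with vehicle and 76.9 RPKM with clodronate. Their part in the level of Ctsk was not tested.

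The order of the levels changed in the middle of the list. In the vehicle library it was Ctsb, Ctss, Ctsd, Lgmn, Ctsa, Ctsc, Ctsz, Ctsh, Ctsl and Ctsk, and the counting intervals of neighbours did not overlap. In the clodronate library Ctss (1400 to 1440 RPKM) and Ctsd (1391 to 1422 RPKM) could not be ordered within counting error, and Lgmn (1339 to 1371 RPKM) followed closely. Ctsc stood above Ctsa there, and Ctsl above Ctsh. Of the 10 members, 7 were in the top 5% of the genes kept in both libraries.

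**Figure D3:**
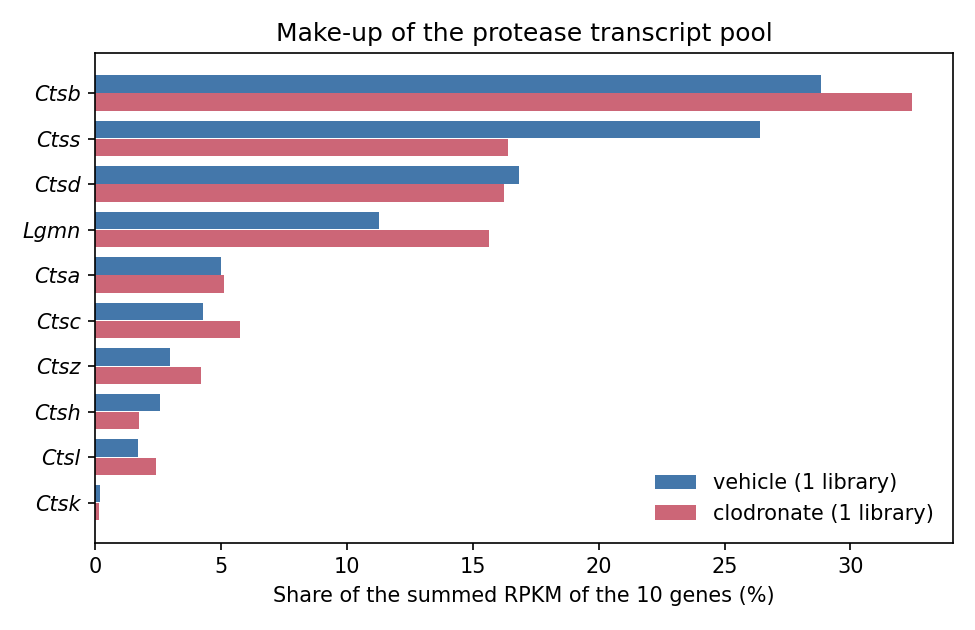
Share of each member in the summed RPKM of the 10 genes, in percent, for the vehicle (blue) and the clodronate library (red), 1 library each. The bar of Ctss is shorter with clodronate (26.4% and 16.4%), and those of Ctsb (28.8% and 32.4%) and Lgmn (11.3% and 15.6%) are longer.

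With 1 RPKM added to each value, no other lysosomal peptidase passed 2-fold. Of 11 such genes 9 were kept, and these 9 had a log2 ratio below 0, as did 48.4% of all genes kept. The median log2 ratio was -0.33, against 0.02 for all genes kept. How widely medians of 9 genes spread was not examined. Ratios of this and all other lists are given without the correction for GC content and length. Tpp1, a tripeptidyl peptidase, had 309 and 242 RPKM. Ctso, a little studied cathepsin, had 51.9 and 36.7 RPKM. Ctse, an aspartic cathepsin, had 1.82 and 0.835 RPKM, past 2-fold only without the added 1 RPKM (log2 ratio -0.62 with it). Ctsg and Ctsw, cathepsins of neutrophils and of cytotoxic lymphocytes, were listed at 0 in both libraries. Of 8 cathepsins of the mouse placenta 7 were listed at 0 in both.

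The inhibitors were represented by a pair of genes. Of 9 inhibitor genes 8, all cystatins, were matched by symbol, and 5 of these were listed at 0 in both libraries and 2 were kept. Cst3, the secreted cystatin C, had 1411 and 1334 RPKM, a log2 ratio of -0.08. Cstb, the cytosolic cystatin B, had 530 and 328 RPKM, a log2 ratio of -0.69, close to that of Ctss.

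The genes that deliver and activate the enzymes had ratios on both sides of 0. All 8 were kept, and 5 had a log2 ratio above 0, where 51.6% of all genes kept did. With 1 RPKM added, 0 passed 2-fold in either direction, and the median was 0.24. The mannose 6-phosphate receptor genes M6pr (140 and 186 RPKM) and Igf2r (24.1 and 32.5 RPKM) had log2 ratios of 0.40 and 0.42. Gnptab and Gnptg, whose products form the enzyme that starts the mannose 6-phosphate tag, had log2 ratios of -0.03 and -0.27, and Sort1, which encodes the sorting receptor sortilin, had one of -0.57. Nagpa, which uncovers the mannose 6-phosphate tag, had 17.9 and 36.2 RPKM, a log2 ratio of 0.97 with 1 RPKM added and just past 2-fold without it. Psap and Grn, which encode the lysosomal proteins prosaposin and progranulin, had 2280 and 2469 RPKM and 768 and 988 RPKM.

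Of the 4 MiT factor genes 0 passed 2-fold. Their median log2 ratio was 0.21. Tfe3, Tfec and Mitf lay between 0.19 and 0.23, below the 75th percentile of the abundant genes (0.24), though each had less than 100 RPKM. Tfeb, with 5.91 and 11.0 RPKM, stood at 0.79. Of the members with an E-box, Lgmn and Ctsl had log2 ratios of 0.43 and 0.47 and Ctsd and Ctsa had ratios near 0. Of those whose windows held none, Ctsz and Ctsc stood at 0.45 and 0.39, and Ctsk and Ctss at -0.16 and -0.73. A link between motif and ratio was not tested. Of 9 genes of the lysosome membrane and proton pump, 3 were above 0 and 6 below, with a median of -0.09. Lamp1, the main membrane protein of lysosomes, had 1011 and 1016 RPKM. Of 3 partners of the Ctsa product 2 were matched, with 0 past 2-fold, and Neu1, the lysosomal neuraminidase, had 20.1 and 20.8 RPKM.

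Of 8 genes of class II antigen processing, all kept, 2 were 2-fold lower or more with clodronate and 0 were 2-fold higher, where 6.77% and 6.95% of all genes kept were. The log2 ratio was below 0 for 7 of them, and the median was -0.34. H2-Aa and H2-Ab1, the chains of the class II molecule I-A, had log2 ratios of -1.68 and -1.13. Ifi30, a lysosomal thiol reductase that opens antigens, had 1101 and 945 RPKM, and Ciita, the activator of class II genes, had 10.3 and 7.99 RPKM. Cd74, the invariant chain that Ctss cuts, had a log2 ratio of 0.10. The 6 dendritic cell markers, which mark another class of cells that use Ctss, summed to 6.73 and 13.04 RPKM, and Cd209a made up most of the latter, with 8.68 RPKM. Their part in the result was not tested. Of the endosomal Toll-like receptor genes, 3 of 6 were above 0, the median was 0.04, and 0 passed 2-fold.

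Of the granule serine protease genes listed, those kept were genes of mast cells. Of 10 granule protease genes 4 were kept, with a median log2 ratio of -0.04 and 0 past 2-fold. Cma1 (30.5 and 17.9 RPKM), Mcpt4 (25.1 and 20.2 RPKM) and Tpsb2 (23.6 and 27.6 RPKM) encode chymases and a tryptase of mast cells. Elane, Prtn3 and Ctsg of neutrophils and Gzma of cytotoxic lymphocytes were listed at 0 in both libraries. The 7 mast cell markers summed to 113.5 RPKM with vehicle and 88.2 RPKM with clodronate. Most of this sum came from Cpa3 (33.0 and 21.6 RPKM), Cma1, Mcpt4 and Tpsb2. The other markers were low or absent, with Kit at 1.36 and 0.717 RPKM, Fcer1a at 0 and 0.108 RPKM and Ms4a2 at 0 in both. The log2 ratio of Ctsc itself was 0.39.

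**Figure D4:**
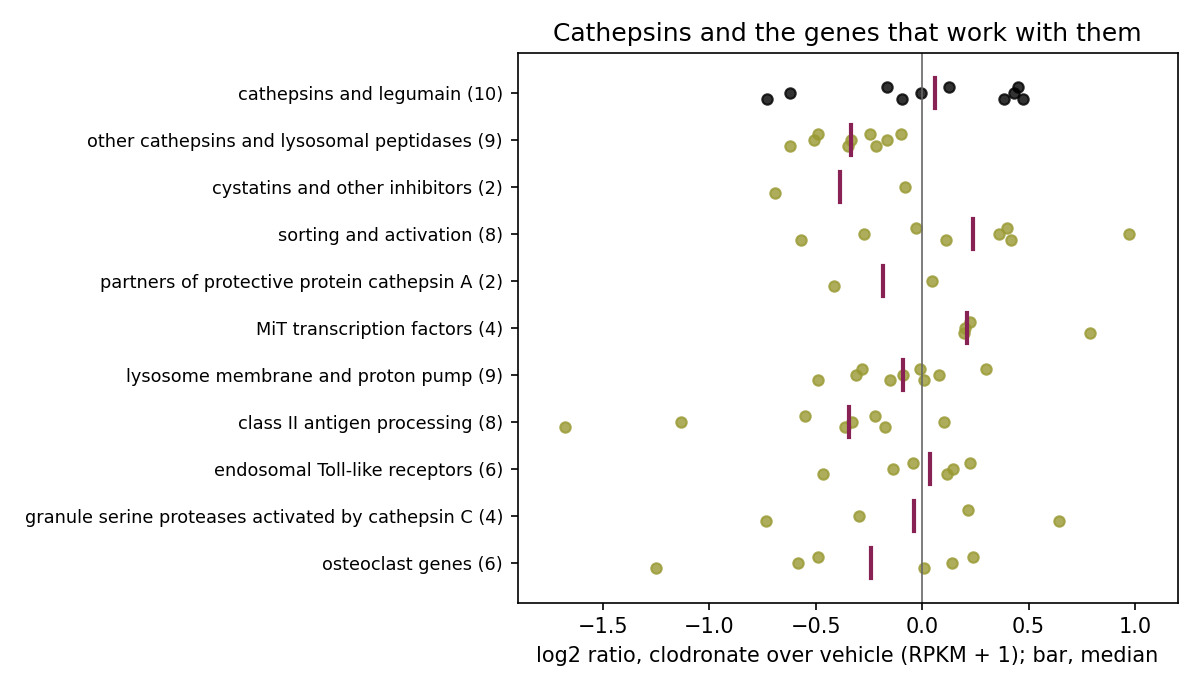
log2 ratio of clodronate over vehicle for each gene kept (points) in 11 groups, the members in black and the lists of related genes in green, with the number of genes in brackets and the median as a bar. The members spread from -0.73 to 0.47, all 9 other lysosomal peptidases lie below 0, and H2-Aa and H2-Ab1 lie farthest to the left among class II genes.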

How the data were processed

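The authors deposited RPKM values, scaled to transcript length and library size, for 23170 gene loci per library, with RefSeq accessions. The submitters' processing notes name CASAVA 1.8.2, TopHat2 2.0.9, Bowtie 0.12.9, Cufflinks 2.2.1, Cuffdiff and the build mm9. The annotation release is not given in the sources used here. The paper describes no tumor experiment and served for style alone. The growth protocol names a progenitor cell line, in conflict with the other labels, which were followed.

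In 26 loci the symbol was a number and the accession replaced it. Rows of a symbol were summed. Ratios are log2 of clodronate over vehicle, with 1 RPKM added, which understates changes of low genes. Transcript lengths and GC content came from GENCODE M21 transcripts with the same accessions (98.7% of genes kept). Counting intervals are exact binomial and Poisson. No test was run. The members, lists and thresholds were chosen with earlier results of these data known. Lists came from general knowledge, and every member and any list gene could be named. Neurl2, Pltp and Fdft1 were named after their values were seen. The read worth estimated from low values and the background of genes at 100 RPKM or more were also chosen after values were seen. The genes closest in level to the highest member are not reported here. Steps were tested on simulated data. Software was scipy 1.17.1, pandas 2.3.3 and numpy 2.4.6 under Python 3.11.15.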

Additional observations from a re-analysis of the deposited data

How the results depend on the processing

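The processing was changed in 10 ways, of which the correction for GC content and length was chosen after seeing the data. No member passed 2-fold under any of them, so none could pass 3-fold. At 1.5-fold 2 members were lower and 0 higher, but after the correction 0 were lower and Ctsl was higher. The median log2 ratio of the members was -0.00067 with upper quartile scaling and 0.012 after the correction, and the ratio of their summed RPKM was 0.930 with upper quartile scaling and 0.980 with equal sums of RPKM. Ctss stayed between -0.79 and -0.53 and Ctsl between 0.41 and 0.66 over the 8 settings that give a ratio. Ctsa changed sign, to 0.0083, with equal sums of RPKM, and no other member did. The filters and the highest row of each symbol could not change a member, each of which has a single row above 5 RPKM. No paired analysis was possible because there is a single library for vehicle and a single one for clodronate.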
